A study of Mus musculus with 9 samples.

Results

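The early response of MA-10 cells to forskolin was measured as the difference between 3 arrays of forskolin-treated cells and 3 control arrays, 6 of the 9 arrays of the study. MA-10 cells descend from a mouse Leydig cell tumour and make steroids. The forskolin cells received 10 µM forskolin for 1.5 h, and the controls received the DMSO vehicle according to their treatment field, although their titles speak of no treatment. Both were kept in serum-free DMEM-F12 with antibiotics over those 1.5 h, after growth in horse serum, so the change of medium is shared by both groups. The other 3 arrays held cells given 10 µM forskolin with 1 mM AICAR and entered the fit only through its estimate of the spread. All arrays come from 1 tumour cell line, and the labels do not say whether the replicates were separate cultures, so a p-value here weighs a difference only against the spread of these samples, which may be technical.

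Forskolin activates adenylyl cyclase, the enzyme that makes cAMP, and so bypasses the luteinizing hormone receptor that drives cAMP in Leydig cells. cAMP frees the catalytic subunits of protein kinase A, which phosphorylate CREB-family factors on DNA, and the same kinase holds back the SIK kinases and so lets the CRTC coactivators enter the nucleus. Genes switched on first include transcription factors such as the Fos, Jun and Nr4a families, feedback regulators, and in Leydig cells the cholesterol carrier Star.

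Each array gave a log2 value per gene, in which a step of 1 is a doubling, and 19938 genes were tested with 1 probe each. At an adjusted p under 0.05 in limma (Benjamini-Hochberg over all genes), 138 genes changed, 0.692% of those tested, with 99 higher (0.497%) and 39 lower (0.196%). With array weights the test called 436 genes, 48.6% of them higher, against 71.7% of the 138, and with every array centred on its median 62.1% of 140 were higher. A change of at least 1.5-fold was seen in 33 called genes, 0.166% of those tested, and 31 of these were higher. The standard error of a called log2 difference had a median of 0.05, and the number of arrays limits this precision. The groups did not overlap in any of the 138 called genes, nor in 14% of all genes tested. Over all genes the median log2 difference was 0.0, and 90% of the genes lay between -0.11 and 0.13. The called rises had a median of 0.46 and ran from 0.23 to 2.64, and the called falls had a median of -0.30 and ran from -0.20 to -2.33. A log2 value is a summed signal of many cells, so fewer cells of a kind and less RNA per cell cannot be told apart.

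**Figure D1:**
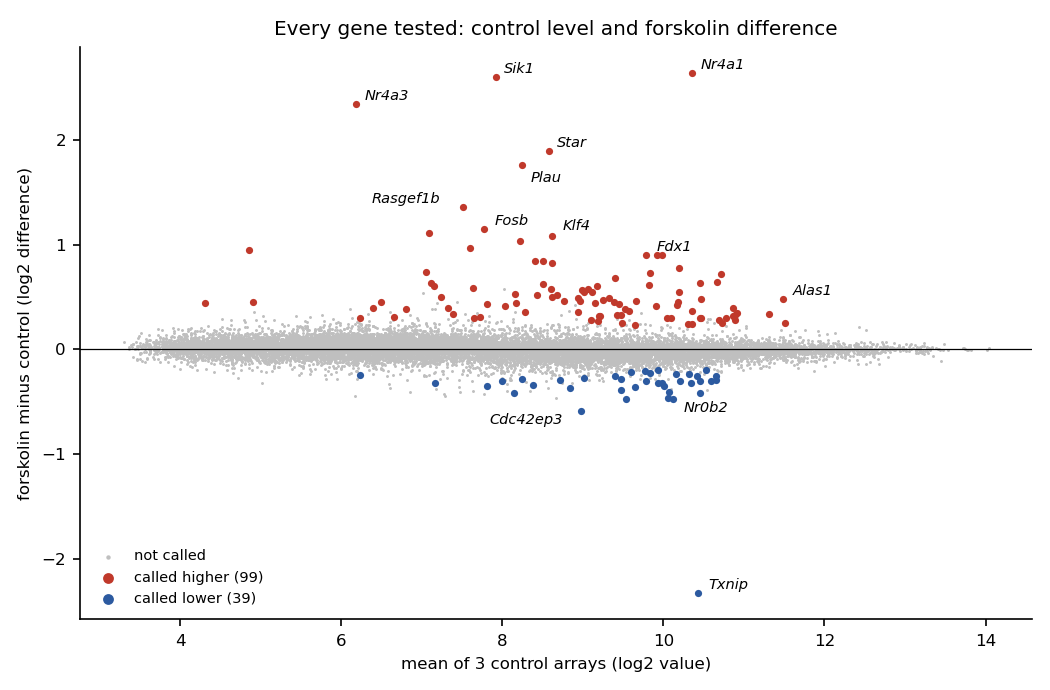
Log2 difference, forskolin minus control (vertical axis), against the mean log2 value of the 3 control arrays (horizontal axis) for the 19938 genes tested; each point is a gene, with the 99 called higher in red and the 39 called lower in blue. Nr4a1, Sik1 and Nr4a3 lie highest, between 2.34 and 2.64, and Txnip lies alone at -2.33.

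Among the called genes, those sorted as transcription factors and cofactors were the largest group, with 18 rises and 8 falls. For this the 138 genes were sorted by function after their values were seen. The group counted Midn and left out Nr1d1, which was put under the circadian clock, so its counts depend on the sorting. The share of such genes among all genes tested was not counted. Of 31 measured immediate early transcription factor genes, 9 rose and none fell (29%, against 0.692% of all genes called), with a median log2 difference of 0.13 against 0.0 over all genes. Nr4a1, the orphan nuclear receptor that acts on promoters of steroid genes, stood at 10.24, 10.44 and 10.4 in control replicates 1, 2 and 3 and at 12.98, 13 and 13.02 with forskolin. All 3 forskolin arrays were therefore far above every control array, a 6.22-fold rise (log2 difference 2.64, SE 0.05, adjusted p = 2.4e-08). Its relative Nr4a3 stood at 6.16, 6.15 and 6.26 in control and at 8.66, 8.45 and 8.5 with forskolin (5.07-fold, adjusted p = 1.6e-07). The third member of that family, Nr4a2, differed by 0.10 (adjusted p = 0.86), with control values of 6.71, 6.68 and 6.8 and forskolin values of 6.82, 6.84 and 6.84.

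The AP-1 genes, whose Fos and Jun products pair on DNA, rose by 1.51-fold to 2.22-fold where they were called. Fosb went from 7.69, 7.81 and 7.81 to 8.93, 8.86 and 8.98, a 2.22-fold rise (adjusted p = 8.9e-06). Fos went from 7.18, 7.06 and 6.92 to 7.81, 7.71 and 7.87, a rise of 1.67-fold, and the control arrays already differed among themselves by more than those of Fosb did. Fosl2 (1.55-fold), Jun (1.53-fold) and Junb (1.51-fold) completed the called AP-1 genes, while Jund (log2 difference 0.11, adjusted p = 0.59) and Fosl1 (0.21, adjusted p = 0.36) did not pass. Egr1, the zinc-finger factor of the serum response, rose 1.41-fold (adjusted p = 0.023), but it kept the call only without control replicate 2 when single arrays were left out (adjusted p up to 0.12). Its relatives Egr2, Egr3 and Egr4 had log2 differences of 0.13, -0.02 and 0.10 and were not called. Atf3, a repressor induced by stress, differed by 0.32 with an adjusted p of 0.079.

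Outside these families, Klf4 and Klf10 moved in opposite directions. Of 17 Krueppel-like factor genes these were the called members (11.8%, against 0.692% of all genes). Klf4 rose 2.11-fold, from 8.69, 8.63 and 8.53 to 9.53, 9.71 and 9.85 (adjusted p = 0.00037). Klf10, induced by TGF-beta in many cells, fell from 9.95, 10.09 and 10.18 to 9.58, 9.73 and 9.68 (log2 difference -0.41, adjusted p = 0.02), a call kept only without control replicate 1 (adjusted p up to 0.11). Crebl2, a CREB-like leucine zipper gene, rose 1.4-fold, and Cited4, a cofactor of the acetyltransferases that CREB recruits, rose 1.38-fold. Both calls were lost without any 1 of the 6 arrays, at adjusted p of up to 0.15 and 0.18. Jmjd1c, a Jumonji-domain protein linked to histone demethylation, rose 1.33-fold through its brighter probe (log2 difference 0.41) and by 0.15 on its second probe. Its call was lost without forskolin replicate 2 or 3 (adjusted p up to 0.062).

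The pathway that carries the cAMP signal showed a single called gene. Sik1, the salt-inducible kinase that restrains CRTC coactivators and so feeds back on CREB, stood at 7.99, 7.96 and 7.8 in control and at 10.43, 10.5 and 10.61 with forskolin. This was a 6.04-fold rise (log2 difference 2.6, SE 0.07, adjusted p = 7.9e-08) with a wide gap between the groups. Sik2 and Sik3 each had a log2 difference of 0.01, and the other 12 of 13 genes of CREB factors, CRTC coactivators and SIK kinases were not called. Thus 7.69% of that list was called, against 0.692% of all genes. Crem, whose inner promoter gives the repressor ICER, went from 6.78, 6.73 and 6.79 to 6.92, 6.87 and 6.94 (log2 difference 0.15, adjusted p = 0.38), and a transcript from that promoter alone was not measured separately. A list of 35 genes would often hold no call when 0.692% of all genes are called. None was called among the 35 genes for adenylyl cyclases, phosphodiesterases, G proteins, protein kinase A subunits and their anchors and inhibitors, with a median of 0.02. The smallest p among them belonged to the regulatory subunit gene Prkar2b (log2 difference 0.26, adjusted p = 0.18), and the phosphodiesterase genes Pde4a, Pde4b and Pde4d differed by -0.09, -0.07 and 0.06.

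Promoter letters were compared because several of these genes are known CREB targets. RefSeq promoter windows of 300 bases (250 before to 50 after a gene's start, build GRCm38.p6) were held for 15563 of the tested genes, among them 75 of the 99 higher and 35 of the 39 lower genes. The core of the cAMP response element, TGACG on either strand (CGTCA when read on the other), stood in at least 1 window of 57.3% of the higher genes (43 of 75), of 28% of all tested genes and of 17.1% of the lower genes (6 of 35). The windows below are a selection, shown because they belong to named rises of at least 1.5-fold, or hold the full element, and carry the match nearest the start. Each reads 5' to 3' on the gene's own strand, with the element in capitals and 16 bases on each side.
Nr4a1, chr15:101266790-101266826, + strand: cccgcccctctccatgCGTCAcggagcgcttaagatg
Nr4a3, chr4:48045142-48045178, + strand: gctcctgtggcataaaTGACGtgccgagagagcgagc
Rasgef1b, chr5:99253021-99253057, - strand: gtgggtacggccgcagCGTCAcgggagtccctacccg
Fosb, chr7:19310085-19310121, - strand: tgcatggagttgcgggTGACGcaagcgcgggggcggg
Klf4, chr4:55532687-55532723, - strand: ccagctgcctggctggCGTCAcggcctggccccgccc
Slc25a25, chr2:32424193-32424232, - strand: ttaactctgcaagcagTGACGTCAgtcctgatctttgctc
Dusp16, chr6:134792678-134792714, - strand: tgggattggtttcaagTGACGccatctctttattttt
Per1, chr11:69100004-69100040, + strand: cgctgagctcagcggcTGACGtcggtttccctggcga
Fos, chr12:85473808-85473844, + strand: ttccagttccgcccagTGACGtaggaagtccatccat
Dusp1, chr17:26508592-26508631, - strand: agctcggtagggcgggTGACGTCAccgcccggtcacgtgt
Btg2, chr1:134079298-134079337, - strand: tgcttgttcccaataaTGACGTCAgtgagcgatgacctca

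In the Fos window the match ended 61 bases before the start, in Nr4a1 35 bases, in Fosb 55, in Dusp16 65 and in Klf4 227. Not every such rise was printed: Plk3, Junb and Hspa1l also held the core before the start. In Usp2, Sema7a and Arrdc3 the core lay at or past the start or at the far end of the window. No match was counted for Sik1, Star or Plau, though windows were not held for every gene. The full palindrome TGACGTCA, which contains the core on both strands, was printed for Slc25a25, Dusp1 and Btg2, and was held by 4 of the 75 higher genes (5.33%), by 2.72% of all tested genes and by 1 of the 35 lower genes (2.86%). The core was held by 61.5% of the 26 higher genes past 1.5-fold and by 55.1% of the 49 under it. Other motifs searched on both strands had shares closer to those of all genes. The AP-1 site TGANTCA stood in 10.7% of the higher and 8.06% of all genes, the E-box CACGTG in 9.33% and 9.52%, and the Nr4a site AAAGGTCA (NBRE) in 0% and 1.5%. The higher genes also had promoters richer in G and C than all genes (62.5% against 57.2%), with more CpG pairs (22.3 against 16.4 per window) and more windows per gene (1.4 against 1.23), and the core itself holds a CpG pair. The part of this composition in the shares was not tested, and they are given by CpG count. Among windows with 23 to 67 CpG pairs the core was in 52.7% of the 55 windows of higher genes and in 37.3% of all windows. With 8 to 22 pairs it was in 48.6% of 35 windows against 28.2%, and with 0 to 7 pairs in 13.3% of 15 windows against 10.5%. These shares describe letters in a fixed window only.

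**Figure D2:**
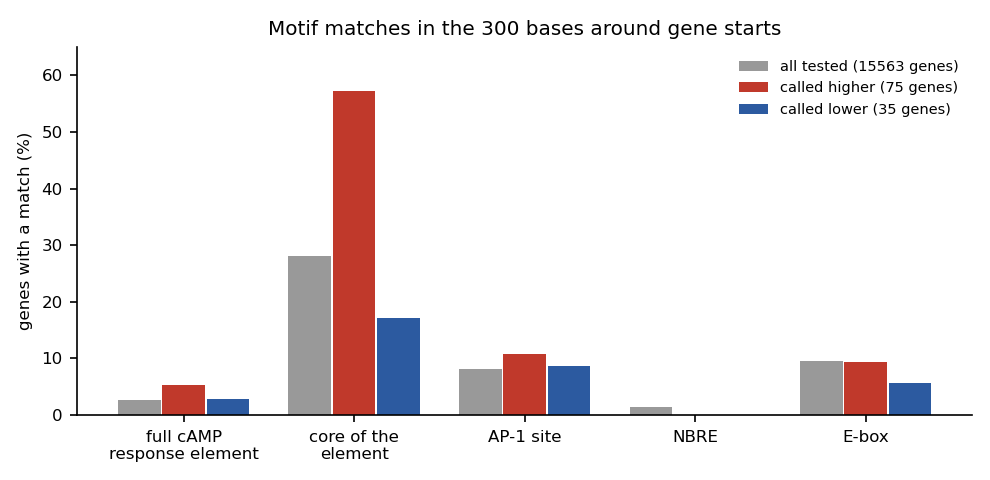
Percent of genes with at least 1 match in their promoter windows (vertical axis) for 5 motifs (horizontal axis), over all tested genes, genes called higher and genes called lower. The core of the cAMP response element stands in 57.3% of higher genes, 28% of all genes and 17.1% of lower genes, while the AP-1 site and the E-box show smaller gaps.

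In the steroid pathway the genes that rose lie at its entrance. Star moves cholesterol to the inner mitochondrial membrane, and its log2 values of 8.57, 8.61 and 8.56 in control became 10.55, 10.33 and 10.52 with forskolin (3.7-fold, adjusted p = 2.8e-07). Fdx1, the ferredoxin that hands electrons to the side-chain cleavage enzyme, went from 9.76, 9.75 and 9.86 to 10.72, 10.66 and 10.68, a 1.86-fold rise (adjusted p = 1.6e-05). All 10 measured steroid synthesis genes had a difference above 0, with a median of 0.15. Only Star and Fdx1 among them were called (20%, against 0.692% of all genes). The side-chain cleavage gene Cyp11a1 stood at 11.66, 11.68 and 11.75 in control and at 11.81, 11.84 and 11.79 with forskolin, so the groups were apart by little and the adjusted p was 0.51. For Cyp17a1, which makes androgen precursors, the values were 10.45, 10.57 and 10.71 against 10.86, 10.91 and 10.82 (log2 difference 0.29, adjusted p = 0.42). Hsd3b1 overlapped between the groups and reached 9.22 in forskolin replicate 3 only, against 8.82 and 8.72 in the others (log2 difference 0.21, adjusted p = 0.85). The Hsd3b genes are close copies of each other, and how far their probes share signal was not tested.

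Supply of cholesterol and haem and the mitochondrion gave further rises. Scarb1, the receptor that takes up cholesterol esters from HDL, rose 1.27-fold, from 10.94, 10.91 and 10.87 to 11.2, 11.26 and 11.3 (adjusted p = 0.0076). It was the only called gene among 20 for cholesterol uptake, storage and delivery (5%, against 0.692% of all genes). Alas1, the rate-limiting enzyme of haem synthesis, rose 1.39-fold with forskolin values of 11.97, 11.95 and 11.95 against 11.41, 11.52 and 11.51. Slc25a25, a calcium-regulated carrier of ATP and phosphate in the inner mitochondrial membrane, rose 2.05-fold, from 8.23, 8.23 and 8.21 to 9.19, 9.25 and 9.33 (adjusted p = 1.9e-06). It and Slc25a35 (1.42-fold) were the called members among 46 mitochondrial carrier genes (4.35%, against 0.692% of all genes). Coq10b, a binding protein for coenzyme Q, rose 1.46-fold but kept its call only without forskolin replicate 1 or 2 (adjusted p up to 0.068). Ttc39b, linked to HDL cholesterol, rose 1.38-fold, with 0.46 and 0.41 on its 2 probes, and lost its call without control replicate 1 or forskolin replicate 1 or 3 (adjusted p up to 0.058). Mrap, which brings the ACTH receptor to the cell surface, was picked after its values were seen, and rose 1.26-fold (adjusted p = 0.0033). None of 25 sterol and fatty acid synthesis genes was called, against 0.692% of all genes. Their median was -0.01, and the smallest p was that of Dhcr7 (0.14, adjusted p = 0.23).

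The list of Leydig nuclear receptors and GATA factors leaves out the Nr4a genes described above. Of its 20 measured genes 1 was called (5%, against 0.692% of all genes), and it fell. Nr0b2, an orphan receptor without a DNA-binding domain that represses other receptors, went from 10.12, 10.13 and 10.12 to 9.61, 9.64 and 9.67 (1.4-fold lower, adjusted p = 0.00065). Nr5a1, the master regulator of steroid genes, stood at 11.92, 11.86 and 11.86 against 11.77, 11.8 and 11.74 (log2 difference -0.11, adjusted p = 0.41), and Nr0b1, its repressor, at 12.62, 12.72 and 12.72 against 12.65, 12.69 and 12.6 (-0.04, adjusted p = 0.94). Without control and forskolin replicate 3 together the value for Nr0b1 was 0.0. Gata4 and Gata6 differed by -0.02 and 0.0.

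**Figure D3:**
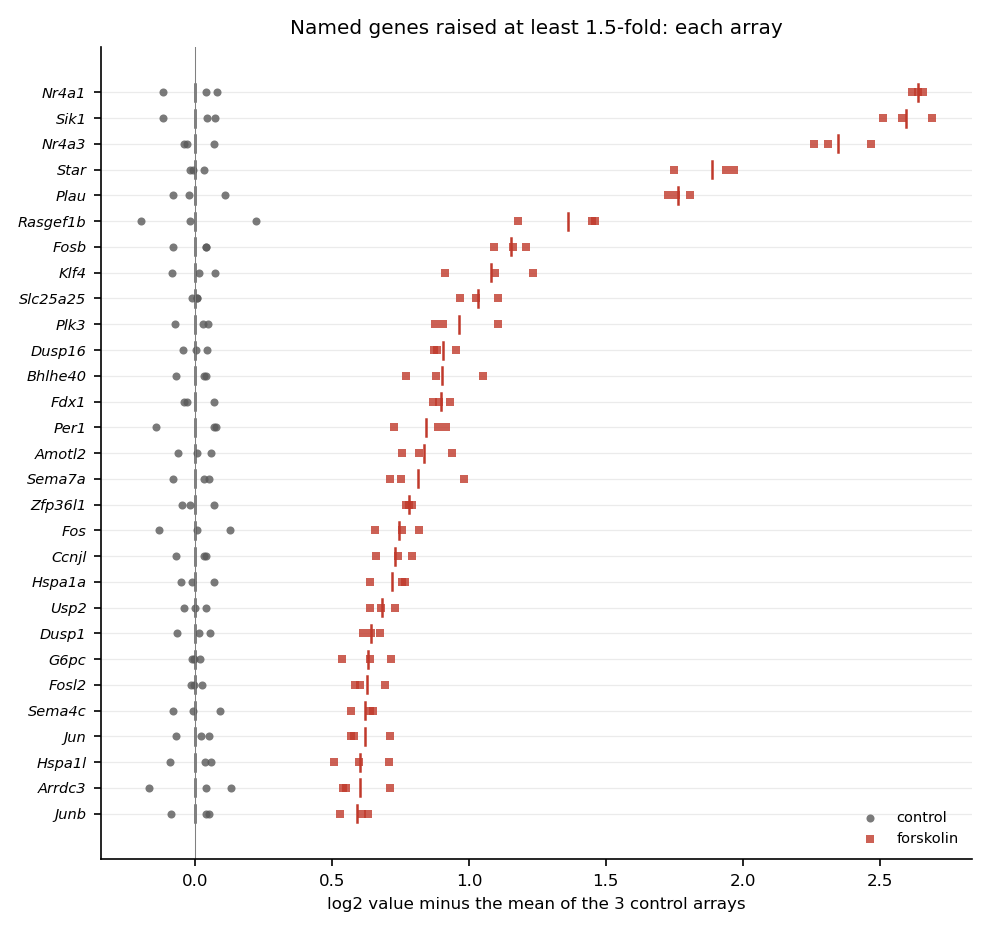
Log2 value minus the mean of the 3 control arrays (horizontal axis) for the named genes called higher by at least 1.5-fold (vertical axis), with grey circles for control arrays, red squares for forskolin arrays and vertical ticks for group means. In each of these genes the 3 forskolin arrays lie to the right of all 3 control arrays, from Nr4a1 at a difference of 2.64 to Junb at 0.59.

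Some negative regulators of MAP kinase signalling were higher. Of 18 genes of the MAPK phosphatase and Sprouty families, 4 rose and none fell (22.2%, against 0.692% of all genes called), with a median of 0.10, and all 4 were phosphatases. Dusp16, which acts mainly on JNK and p38 kinases, went from 9.93, 10.02 and 9.98 to 10.86, 10.85 and 10.93 (1.87-fold, adjusted p = 1.2e-05). Dusp1 rose 1.56-fold and Dusp5, which is nuclear and acts on ERK, 1.49-fold. Dusp4 rose 1.44-fold, and its call did not survive the loss of control replicate 1 or 3 (adjusted p up to 0.06). Dusp6, the cytoplasmic ERK phosphatase, had a log2 difference of 0.14 (adjusted p = 0.77), and Spry1, Spry2 and Spry4 differed by 0.09, 0.03 and 0.04.

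Among other kinases the polo-like kinase Plk3, which takes part in stress responses, rose 1.95-fold, from 7.53, 7.63 and 7.65 to 8.51, 8.48 and 8.71 (adjusted p = 0.00014). Its relatives Plk1, Plk2 and Plk4 differed by -0.17, -0.01 and -0.03 and were not called. Mapkapk3, a kinase downstream of p38, rose 1.36-fold, and Camk2n2, an inhibitor of calmodulin-dependent kinase, 1.37-fold, the latter losing its call without any 1 control array (adjusted p up to 0.064). Snrk, an AMPK-related kinase, fell by 0.21 on the log2 scale and lost its call without any 1 of the 6 arrays (adjusted p up to 0.2). In all, 2 of 29 genes for polo, Pim, Tribbles and other induced kinases were called (6.9%, against 0.692% of all genes). Pim1, Pim3 and Sgk1 differed by 0.18, 0.22 and 0.20 with adjusted p from 0.11 to 0.5.

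Small GTPase signalling and the cytoskeleton held 2 of the larger changes. Rasgef1b, an exchange factor for Rap2, stood at 7.31, 7.49 and 7.73 in control and at 8.69, 8.96 and 8.97 with forskolin, a 2.57-fold rise (SE 0.11 on the log2 scale, adjusted p = 0.00039). Its control arrays were spread more widely than those of Plau or Star, yet all lay below the forskolin arrays. Rasgef1a and Rasgef1c differed by 0.02 and 0.04. Cdc42ep3, an effector of Cdc42 that organises septins and actin, went from 9.02, 8.94 and 8.97 to 8.32, 8.37 and 8.49 (log2 difference -0.59, adjusted p = 0.00078), and Cdc42ep1, Cdc42ep2, Cdc42ep4 and Cdc42ep5 had differences between -0.15 and 0.07 without a call. Gem, a small GTPase that binds calcium channels, was looked at after its values were seen, and its difference of 0.58 did not pass (adjusted p = 0.064; 7.86, 8.17 and 8.03 against 8.54, 8.56 and 8.71). Amotl2, an angiomotin that holds YAP at junctions, rose 1.79-fold, from 8.42, 8.47 and 8.35 to 9.17, 9.23 and 9.35. It was the only gene called among 32 YAP and SRF targets and angiomotins (3.12%, against 0.692% of all genes). Ttll10, which adds glycine chains to proteins, rose 1.48-fold (adjusted p = 0.00089).

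Of 27 genes of extracellular proteolysis and matrix, 2 rose and none fell (7.41%, against 0.692% of all genes called), with a median of 0.03. Plau, the urokinase that turns plasminogen into plasmin, went from 8.23, 8.36 and 8.17 to 10.01, 9.98 and 10.06, a 3.39-fold rise (adjusted p = 5e-07). Its receptor gene Plaur (-0.04), the tissue activator gene Plat (-0.01) and the matrix metalloproteinase genes of the list (Mmp2, Mmp3, Mmp9, Mmp10, Mmp13 and Mmp14, from 0.0 to 0.06) were not called. Adamts4, an aggrecan-cleaving protease, rose 1.26-fold, and its call held only without control replicate 1 (adjusted p up to 0.18). Pdgfb, a growth factor for mesenchymal cells, rose 1.44-fold, from 8.43, 8.44 and 8.43 to 8.97, 8.88 and 9.02. It was the only call among 31 growth factor and hormone genes (3.23%, against 0.692% of all genes). Inhba, the activin beta A subunit, fell from 9.97, 10.12 and 10.1 to 9.62, 9.53 and 9.62 (log2 difference -0.47, adjusted p = 0.0056). In the same list of 35 TGF-beta, BMP and activin genes Smad7, an inhibitory Smad, rose 1.23-fold. It lost its call without any 1 of the 6 arrays (adjusted p up to 0.18). Of that list 5.71% was called, against 0.692% of all genes. The receptor list, with the ACTH, prostaglandin and insulin-like growth factor receptors among its 24 genes, had no call, and the smallest p was that of Igf1r (0.18, adjusted p = 0.31).

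Surface and guidance molecules moved in both directions. Of 20 semaphorin genes, 2 rose and 1 fell, 15% against 0.692% of all genes, and this family was singled out after its values were seen. Sema7a, a membrane-anchored semaphorin that signals through integrins, went from 8.67, 8.54 and 8.65 to 9.37, 9.33 and 9.6 (1.76-fold, adjusted p = 0.00052), and Sema4c from 8.5, 8.6 and 8.43 to 9.08, 9.15 and 9.16 (1.54-fold). Sema6c fell by 0.39 on the log2 scale, a call kept only without forskolin replicate 3 (adjusted p up to 0.11). Ifitm7, a member of the interferon-induced transmembrane family, fell from 9.54, 9.54 and 9.51 to 9.04, 9.06 and 9.06 (adjusted p = 0.0007). The other 20 genes of the interferon list were not called (4.76% of the list called, against 0.692% of all genes). Of genes picked after their values were seen, Ccrl2, an atypical chemoattractant receptor, rose 1.36-fold and Heg1, a membrane protein of cell junctions, 1.26-fold, with log2 differences of 0.33 and 0.26 on the 2 probes of Heg1.

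Several genes for proteins that shorten the life of mRNA were higher. Of 24 genes of mRNA decay and translation control, 5 rose and none fell (20.8%, against 0.692% of all genes called), although the median of the list was 0.0. Zfp36l1, which binds AU-rich elements and draws in deadenylases, went from 10.15, 10.27 and 10.18 to 10.98, 10.99 and 10.97 (1.72-fold, adjusted p = 1.6e-05), and its relative Zfp36l2 rose 1.19-fold whereas Zfp36 differed by 0.06 (adjusted p = 0.85). Btg2 went from 7.3, 7.31 and 7.35 to 7.7, 7.7 and 7.72 (1.31-fold, adjusted p = 0.00068), and Btg1 rose 1.31-fold (adjusted p = 0.005). Tob1 rose 1.27-fold, which made 3 of the 7 Btg and Tob genes (42.9%, a family singled out after its values were seen), antiproliferative proteins that recruit the CCR4-NOT deadenylase. The Ccr4-Not genes themselves (Cnot1, Cnot4, Cnot7 and Cnot8, from -0.09 to 0.0) were not called. Zfp36l2 and Tob1 lost their calls without any 1 of the 6 arrays, at adjusted p of up to 0.21 and 0.18.

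In the circadian clock, 3 of 17 genes rose and 1 fell (23.5%, against 0.692% of all genes called), with a median of -0.02. Per1, a repressor of the core loop whose promoter binds CREB, went from 8.36, 8.58 and 8.57 to 9.23, 9.42 and 9.39 (1.79-fold, adjusted p = 0.0008). Per2 rose 1.33-fold, with a call that held only without forskolin replicate 2 (adjusted p up to 0.12), and Per3 differed by -0.06. The kinase gene Csnk1e, whose product phosphorylates Per proteins, rose 1.23-fold (adjusted p = 0.0042). Nr1d1, the repressor REV-ERB alpha, fell by 0.30 on the log2 scale, a call kept only without forskolin replicate 3 (adjusted p up to 0.11). Bhlhe40, a repressor that binds the same E-boxes as the clock and was listed with the immediate early genes, rose 1.86-fold, from 9.85, 9.95 and 9.96 to 10.69, 10.8 and 10.97. The activators Clock (-0.04) and Arntl (-0.10) were not called.

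The largest fall in the data was that of Txnip, an alpha-arrestin that binds thioredoxin and withdraws glucose transporters from the membrane. It stood at 10.23, 10.47 and 10.57 in control and at 7.77, 8.34 and 8.19 with forskolin, a 5.01-fold fall (log2 difference -2.33, SE 0.14, adjusted p = 3.8e-05). Forskolin replicate 1 lay lowest, and the gap to the controls was far wider than the spread in either group. Arrdc3, another alpha-arrestin, moved the other way, from 9.01, 9.22 and 9.31 to 9.72, 9.73 and 9.89 (1.51-fold, adjusted p = 0.0089). Arrdc1, Arrdc2, Arrdc4 and Arrdc5 had differences between -0.04 and 0.06, and the Mondo factor genes Mlxip and Mlxipl, glucose-sensing regulators, differed by -0.06 and -0.02.

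Enzymes of glucose handling gave 2 more rises in that list of 26 genes (15.4% of the list called, against 0.692% of all genes). G6pc, the catalytic subunit of glucose-6-phosphatase and a cAMP-induced gene of liver, went from 7.1, 7.13 and 7.11 to 7.83, 7.75 and 7.65 (1.55-fold, adjusted p = 0.0033). Hk2, a hexokinase, rose 1.18-fold and lost its call without any 1 of the 6 arrays (adjusted p up to 0.19). Pck1, the partner of G6pc in gluconeogenesis, differed by 0.16 (adjusted p = 0.75), Ppargc1a by -0.07, and the glucose transporter genes Slc2a1, Slc2a3, Slc2a4 and Slc2a8 by -0.04 to 0.08. Gpcpd1, which cleaves glycerophosphocholine, rose 1.39-fold, from 10.43, 10.45 and 10.55 to 10.92, 10.98 and 10.96. Slc22a5, the carnitine transporter, rose 1.38-fold (adjusted p = 0.0039). Slc45a3, a sugar transporter, Txndc11, a thioredoxin-like protein of the endoplasmic reticulum, and St3gal1, which adds sialic acid to O-glycans, were picked after their values were seen and rose 1.29-fold, 1.35-fold and 1.34-fold. The 2 probes of St3gal1 differed by 0.42 and 0.21. Of all 364 solute carrier genes measured, 5 rose and none fell (1.37%, against 0.692% of all genes). G0s2, an inhibitor of triglyceride lipase, fell by 0.30 on the log2 scale, from 9.81, 9.79 and 9.74 to 9.48, 9.45 and 9.51.

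The chaperone genes that rose were of a single family. Hspa1a, an inducible HSP70, went from 10.67, 10.71 and 10.79 to 11.36, 11.49 and 11.48 (1.65-fold, adjusted p = 9.7e-05), and its neighbour in the genome, Hspa1l, from 7.06, 7.19 and 7.21 to 7.75, 7.86 and 7.66 (1.52-fold). HSP70 genes are close copies, so their probes may share signal, and Hspa1b was not analysed here. The other 19 genes of the heat shock and protein folding list were not called, among them Hspa8 (0.01), Hsph1 (0.04), Dnajb1 (0.02) and the endoplasmic reticulum chaperone Hspa5 (0.04). Of that list 9.52% was called, against 0.692% of all genes. Usp2, a deubiquitinase, rose 1.6-fold, from 9.36, 9.44 and 9.4 to 10.13, 10.04 and 10.08 (adjusted p = 0.00065), and the ubiquitin ligase gene Rnf122 rose 1.28-fold with a call kept only without forskolin replicate 1 (adjusted p up to 0.2). Tiparp, which attaches ADP-ribose to proteins, rose 1.46-fold (adjusted p = 0.0023).

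Of 37 genes of cell death, survival and growth arrest, 3 rose and none fell (8.11%, against 0.692% of all genes called), with a median of 0.04. Gadd45b, a stress sensor, lay just under the fold threshold at a log2 difference of 0.58 (9.02, 9.15 and 9.03 against 9.64, 9.67 and 9.63), where Junb lay just above it at 0.59. Bcl2l11, which encodes the pro-death protein BIM, rose 1.35-fold (adjusted p = 0.0042), and Ddit4, an inhibitor of mTOR signalling, rose 1.25-fold with a call kept only without control replicate 1 (adjusted p up to 0.083). Gadd45a and Gadd45g differed by 0.03 and 0.04, and Bcl2, Mcl1 and Bbc3 by 0.01, 0.06 and 0.05. Ccnjl, a cyclin J-like gene, rose 1.66-fold, from 9.76, 9.87 and 9.86 to 10.49, 10.57 and 10.62.

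The falls other than Txnip were shallow. Of the 39 called lower, 28 fell at least 1.2-fold, 2 at least 1.5-fold and only Txnip at least 2-fold, where the rises counted 93, 31 and 10. Hpdl, related to hydroxyphenylpyruvate dioxygenase, went from 10.35, 10.52 and 10.49 to 10.07, 10.07 and 9.97 (log2 difference -0.42, adjusted p = 0.0072). Strip2, a part of phosphatase-kinase complexes, fell by 0.42 and kept its call only without forskolin replicate 3 (adjusted p up to 0.11). The transcription regulators Hes1, a target of Notch, and Asxl1, a Polycomb-linked protein, fell by 0.34 and 0.32, and the second kept its call without any 1 of the 6 arrays (adjusted p up to 0.047). Hes1 lost its call without control replicate 3 or forskolin replicate 1 or 2 (adjusted p up to 0.062), and the other 21 Notch genes were not called. Of the Notch list 4.55% was called, against 0.692% of all genes. Ehf, Bcl9 and Prox1, which are an Ets factor, a Wnt coactivator and a homeobox factor, fell by 0.35, 0.32 and 0.36, with adjusted p of up to 0.097, 0.07 and 0.2 when single arrays were left out. Cyp2s1, an oxidase of the cytochrome family, and Cemip, a hyaluronan-binding protein, fell by 0.37 and 0.32, with adjusted p of up to 0.084 and 0.19. Ehf kept its call without forskolin replicate 1 or 3, Bcl9 without control replicate 3 or forskolin replicate 2 or 3, and Prox1, Cyp2s1 and Cemip only without forskolin replicate 3.

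The 6 called genes sorted into mitosis and spindle were all lower. This sorting was made after the values were seen, and it put the higher genes Ccnjl and Plk3 into other groups. The share of such genes among all genes tested was not counted. Troap, a spindle protein, went from 10.26, 10.22 and 10.15 to 9.91, 9.91 and 9.91 (log2 difference -0.30, adjusted p = 0.0058) and kept its call without any 1 of the 6 arrays. Ska2, of the kinetochore complex, fell by 0.30 and kept its call only without control replicate 1 or forskolin replicate 3 (adjusted p up to 0.087). Its neighbour Prr11 fell by 0.29 and kept its call only without forskolin replicate 3 (adjusted p up to 0.14). Fam83d, Aspm and Birc5 fell by 0.26, 0.23 and 0.20 and lost their calls without any 1 array. In the cell cycle list of 33 other genes none was called, 7 had a difference above 0 and the median was -0.05, with Aurka lowest at -0.28 (adjusted p = 0.096; adjusted p = 0.039 after quantile normalization), Cdc25c at -0.24 and Cdc25b at -0.19. With limma 9 of the 33 had an unadjusted p under 0.05, against 1450 of 19938 genes.

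**Figure D4:**
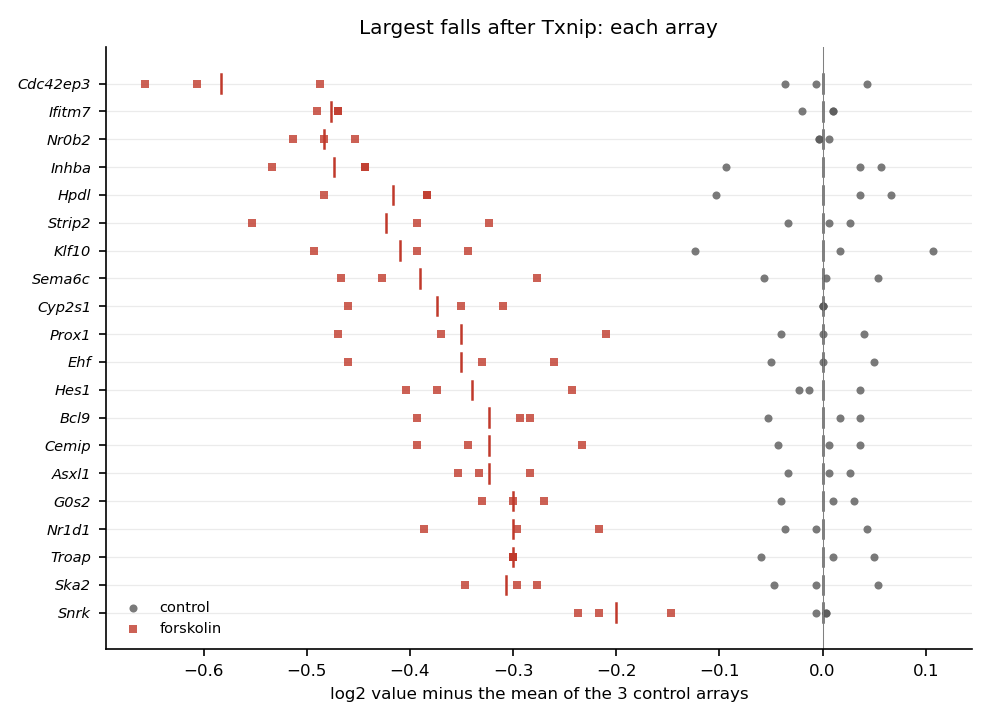
Log2 value minus the mean of the 3 control arrays (horizontal axis) for 20 named genes called lower, after Txnip (vertical axis), with grey circles for control arrays, red squares for forskolin arrays and vertical ticks for group means. The groups do not overlap in any gene shown, and the means run from -0.59 for Cdc42ep3 to -0.21 for Snrk.

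The 38 gene lists held 864 different measured genes and 55 of the 138 called genes, 46 higher and 9 lower. The other 83 called genes were in no list. In 14 lists no member was called. With 0.692% called over all genes, a list of 11 to 35 genes would often hold none, so an empty list says little. Besides those named above, the lists with no call covered EGF family ligands and receptors (15 genes, median 0.0) and C/EBP, ATF and Maf factors (20 genes, 0.01). They also covered ion channels (21 genes), the Wnt pathway (29 genes, 0.0) and cytokines, chemokines and SOCS genes (28 genes, 0.02). The smallest p values in these belonged to Hbegf (0.19, adjusted p = 0.47), Cebpb (0.16, adjusted p = 0.14), Kcnk3 (0.18, adjusted p = 0.12), Fzd4 (0.23, adjusted p = 0.3) and Stat3 (0.19, adjusted p = 0.3).

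Cell type markers were compared between the groups gene by gene, since the level of one probe says little beside that of another. Of 9 measured Leydig cell markers 3 rose (Star, Fdx1 and Scarb1), 33.3% against 0.692% of all genes called. The mean log2 value of that list ran from 9.8 to 9.82 in control and from 10.2 to 10.26 with forskolin. None of 59 markers of other testis cells (endothelial, peritubular, macrophage, germ and Sertoli cells) was called, against 0.692% of all genes. The list mean of Sertoli cell markers ran from 7.78 to 7.85 in control and from 7.82 to 7.84 with forskolin. For germ cell markers it ran from 5.6 to 5.63 in control and from 5.6 to 5.64 with forskolin, and for macrophage markers from 6.05 to 6.07 in control and from 6.07 to 6.11 with forskolin. The peritubular list ran from 6.46 to 6.52 in control and from 6.43 to 6.53 with forskolin, and the endothelial list from 6.87 to 6.94 in control and from 6.89 to 6.94 with forskolin. In these 5 lists the smallest p values were those of Gata1 (-0.16, adjusted p = 0.31), Prm2 (0.15, adjusted p = 0.67), Aif1 (-0.10, adjusted p = 0.76), Myh11 (0.12, adjusted p = 0.79) and Tek (0.10, adjusted p = 0.75).

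**Figure D5:**
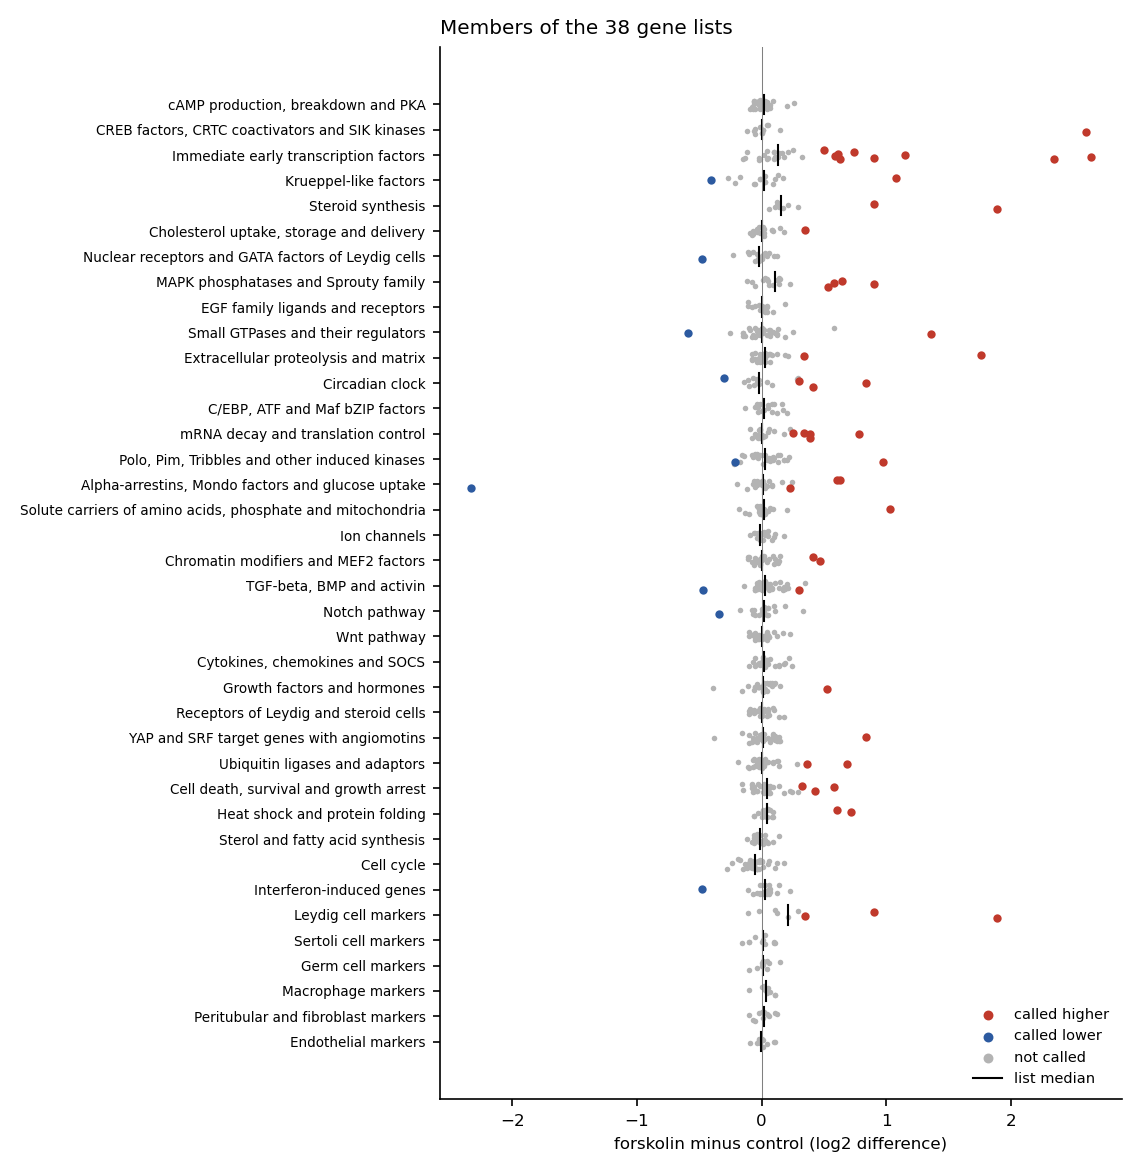
Log2 difference, forskolin minus control (horizontal axis), for every measured member of the 38 gene lists (vertical axis); red and blue points are members called higher and lower, grey points are not called, and black ticks are list medians. Nr4a1 of the immediate early list (2.64) and Sik1 of the CREB, CRTC and SIK list (2.6) lie farthest to the right, Txnip (-2.33) farthest to the left, and the 5 lists of other testis cell types hold grey points only.

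Calls were uneven over the range of levels. Of the 4985 genes with the highest control means (9.41 to 14.04), 1.36% were called, 41 higher and 27 lower, against 0.0602% of the 4985 with the lowest means (3.3 to 5.98), 3 higher and none lower. Protein-coding genes made up 95 of the rises and 37 of the falls, and 18556 of the 19938 genes tested. Of 297 microRNA genes 1 was called, Mir15a (log2 difference -0.27), which lost its call without any 1 of the 6 arrays (adjusted p up to 0.13). Of 675 long noncoding RNA genes 4 were called. Both counts are too small to set these kinds of gene apart from the 0.692% of all genes called.

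With AICAR added, the same genes were read on 3 further arrays, given here as levels with no test because the control arrays are shared. The genes shown were picked after their values were seen. Sik1 stood at 10.49 ± 0.07 (SD, n = 3) with both agents, beside 10.51 ± 0.09 with forskolin alone and 7.92 ± 0.1 in control. For Nr4a1 the means were 12.54 ± 0.05, 13 ± 0.02 and 10.36 ± 0.1 in that order, and for Slc25a25 8.8 ± 0.02, 9.26 ± 0.07 and 8.22 ± 0.01. Plau stood at 8.69 ± 0.08 with both agents, 10.01 ± 0.04 with forskolin and 8.25 ± 0.1 in control, whereas Nr0b2 stood at 9.28 ± 0.07, 9.64 ± 0.03 and 10.12 ± 0.01. Star stood at 8.42 ± 0.05 with both agents, 10.47 ± 0.12 with forskolin and 8.58 ± 0.03 in control, and Fos at 9.05 ± 0.15, 7.8 ± 0.08 and 7.05 ± 0.13. Nr4a3 stood at 7.52 ± 0.09 with both agents, 8.54 ± 0.11 with forskolin and 6.19 ± 0.06 in control. Txnip stood at 9.12 ± 0.07, 8.1 ± 0.3 and 10.43 ± 0.17 in that order. The level with both agents therefore lay near that with forskolin for Sik1, nearer to control for Plau and just below control for Star. It lay beyond forskolin for Fos and Nr0b2, and between control and forskolin for Nr4a3 and Txnip.

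The larger rises rested on no single array. Of the 31 rises of at least 1.5-fold, 30 were called whichever of the 6 arrays was left out, and the exception, a pseudogene without a given name, was not called once control replicate 1 or 3 was removed (adjusted p up to 0.065). Of all 138 called genes 66 were, 55 of the 99 rises and 11 of the 39 falls, and the number of called genes was 76 to 91 in these fits.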

How the data were processed

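RNA of 9 MA-10 samples was read on Affymetrix whole-transcript arrays, 3 per group, and the 6 control and forskolin arrays were compared. The deposited log2 values per transcript cluster (here probe) were made by the authors with RMA and Partek, per the submitters' processing notes, with versions and settings not given in the sources used here. RMA in its usual form makes all arrays share 1 distribution, so a shift common to most genes would not show.

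Of 35557 probes, 21789 had 1 gene symbol, 1621 several and 12147 none listed. Probes with 1 symbol were kept and, for 999 genes with several such probes, the brightest by its mean over the 9 arrays, giving 19938 genes. No gene was filtered, no value was missing and no arrays were identical. Array medians ran from 7.14 to 7.19 and interquartile ranges from 3.34 to 3.48. No genome build is named with the values, so no gene coordinates are given apart from the RefSeq promoter windows of GRCm38.p6.

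All 9 arrays entered 1 group-means model in limma 3.58.1 (R 4.3.3) with 6 residual degrees of freedom, its moderated two-sided test and Benjamini-Hochberg adjustment over all genes, called at an adjusted p under 0.05. The script was tested on simulated data. Gene lists were described by counts and medians. Figures were drawn with matplotlib 3.10.9 and tables made with pandas 2.3.3 in Python 3.11.15.

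Genes named were those called and changed at least 1.5-fold, the 20 next largest rises, the 20 largest falls, called members of each of 38 lists or the member with the smallest p where none was called, and Star, Cyp11a1, Cyp17a1, Hsd3b1, Nr5a1, Nr0b1, Nr4a1, Nr4a2, Nr4a3, Fos, Jun, Crem, Sik1 and Txnip. Predicted transcripts, clone names, olfactory receptors and the like were counted and not named. Uncalled list members beside them, and genes marked so, were chosen after their values were seen. The members, lists, rule and alternatives were chosen with earlier results of these data known. Alternatives were a replicate block, the 6 arrays alone, filters at a mean of 5 or 6, quantile normalization, median centring, a trended robust prior, array weights, thresholds of 0.01 and 0.1, averaging the probes of a gene, and arrays left out.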

Additional observations from a re-analysis of the deposited data

How the results depend on the processing

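The 33 genes past 1.5-fold numbered 28 to 35 when single arrays were left out and stayed within 1.5 times in every alternative run. The count of 138 called genes was 76 to 91 without single arrays, 45 without control and forskolin replicate 3 together, 83 (67 higher, 16 lower) with the replicate number as a block, 436 (212 higher, 224 lower) with array weights and 72 at an adjusted p under 0.01. It stayed between 110 and 191 with the 6 arrays alone, both filters, quantile normalization, median centring, the trended robust prior and the mean of probes, and was 183 at an adjusted p under 0.1. The median difference over all genes was 0.003 and lay between -0.022 (median centring) and 0.006 in the alternatives. Whether the replicate numbers pair the samples was not settled. Deviations of same-numbered control and forskolin arrays correlated at 0.24, 0.01 and 0.33. Control replicates 1 and 3 correlated best with the same-numbered forskolin array, while control replicate 2 correlated better with forskolin replicate 1 (0.11). Among the arrays with AICAR, control replicate 3 correlated best with replicate 1 (0.49) and control replicate 1 with replicate 3 (0.27). Deviations were thus shared across groups, and their source was not tested. Under the block 79 of the 138 genes remained called. Over the named genes and alternatives, 1445 values kept direction and side of the threshold, 221 lost the call, 11 gained it and 1 turned, Nr0b1 at 0.0 without both replicates 3 (-0.04 with all arrays). The cause of these changes was not tested, and the left-out fits also held fewer arrays.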

Other observations

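Of 132 called protein-coding genes placed in the gene table, 7 pairs were direct neighbours, and the members of all 7 pairs moved the same way. How many such pairs any 132 genes would give was not counted, nor how often neighbours moved alike over all genes. Nr4a1 stood beside Grasp, a scaffold of postsynaptic and receptor proteins (log2 differences 2.64 and 0.33), Dusp16 beside Crebl2 (0.90 and 0.49), and Rassf2, a Ras-association tumour suppressor, beside the vitamin C transporter gene Slc23a2 (0.30 and 0.32). The lower pairs were Prr11 with Ska2 (-0.29 and -0.30) and Pabpc4l with the protocadherin gene Pcdh18 (-0.28 and -0.28). Hspa1a with Hspa1l and a pair of olfactory receptor genes are close copies. Midn and Cbarp rose by 0.37 and 0.31 on either side of Atp5d, which differed by -0.01 (adjusted p = 0.98). Many of these smaller calls rested on few arrays. Grasp and Crebl2 lost theirs in limma without any 1 of the 6 arrays (adjusted p up to 0.17 and 0.15), Slc23a2 kept its call only without forskolin replicate 2 (up to 0.098), and Rassf2 lost its call without control replicate 1 (0.051). Prr11 kept its call only without forskolin replicate 3, Ska2 only without that array or control replicate 1, and Pabpc4l and Pcdh18 only without control replicate 1 (up to 0.14, 0.087, 0.15 and 0.15). Cbarp kept its call only without control replicate 2 (up to 0.072), and Midn lost its call without control replicate 2 or 3 (up to 0.0504). These pairs were noticed after the values were seen, and no test of them was made.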
